A study of Mus musculus with 3 samples.

Results

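The synaptic adhesion molecules described here were 52 genes of the 31055 in the raw count matrices. They were taken by name from 14 families: 6 contactins, 6 contactin-associated proteins, 4 teneurins, 4 latrophilins, 2 neurexins, 3 neuroligins, 4 Lrrtm, 3 Flrt and 6 Slitrk genes, 3 receptor protein tyrosine phosphatases, 2 Il1rapl genes, 3 calsyntenins, 3 C1ql genes and 3 cerebellins. Their RNA was followed across the nuclei of the olfactory bulb of 3 adult male C57Bl/6 mice. All 3 animals received the same virus and no other allele or agent is named: retroAAV-CAG-H2B-GFP, injected into both piriform cortex and anterior olfactory nucleus, enters axon terminals and marks the nucleus of the projecting neuron with GFP. The CAG promoter is active in most cell types, and the study describes label in cells of the glomerular and granule layers too. GFP-positive nuclei were sorted and each mouse gave 1 single-nucleus library, so that there is no untreated group and every comparison is between cell types within the same animals.

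Synaptic adhesion molecules are membrane and secreted proteins that join the presynaptic and the postsynaptic side of a synapse. Presynaptic hubs, the neurexins and the LAR-type receptor phosphatases, bind across the cleft to neuroligins, Lrrtm, Slitrk and Il1rapl proteins, secreted cerebellins bind neurexins, and C1ql proteins bind the adhesion receptor Adgrb3. Teneurins and Flrt proteins are ligands of latrophilins, and contactins act along axons, often beside a contactin-associated partner. In the olfactory bulb such molecules are of interest because mitral and tufted cells form reciprocal synapses with inhibitory granule and periglomerular cells and send axons to different parts of olfactory cortex.

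The deposited tables listed nuclei of 22 clusters, with 5845, 21105 and 4753 nuclei in mouse 1, 2 and 3 and medians of 7940, 8420 and 10568 unique molecular identifiers (UMIs) per nucleus. Types were named here from marker genes: 7 subclusters with 6346 nuclei were called M1-, M2- and M3-like (mitral), T1-like (tufted) and ET1-, ET2- and ET4-like (external tufted), and 10 clusters with 21236 nuclei were called inhibitory. A type name rests on at least 3 carried markers, and the M1-like subcluster carried 10 of its 10. The M1-like library of mouse 1 stood apart, since it held 14 nuclei and 161593 UMIs, while those of mouse 2 and 3 held 465 and 207 nuclei. Nuclei with at least 1 UMI of both an excitatory gene (Slc17a7, Slc17a6, Tbx21) and an inhibitory gene (Gad1, Gad2, Slc32a1) made up 58.3% of the 7 types and 17.1% of the inhibitory clusters. Whether these were doublets or free RNA was not tested, no doublet caller was run, and results that changed without such nuclei are given both ways. Between libraries 82 cell barcodes were shared. Values are UMI counts scaled to a total of 1000000 (CPM) over all nuclei of a type in a mouse, n = 3 mice, given in the order mouse 1, 2 and 3, and they count RNA in nuclei, so that levels are compared for 1 gene between types and never between genes.

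By gene span these genes were long. The median member spanned 100.1 kb of the mouse genome (GRCm38) against 12.6 kb over all genes of the matrix, and 18 members (34.6%) spanned more than 500 kb against 0.761% of all genes. The receptor phosphatase gene Ptprd (chr4:75941238-78211961, minus strand), the contactin-associated gene Cntnap2 (chr6:45059357-47304213, plus strand) and Il1rapl1 (chrX:86740870-88115645, minus strand) were among them, whereas the cerebellin gene Cbln1 spanned 4.2 kb. In 24 of the 52 an annotated gene lies on the opposite strand, and since the sources used here do not state whether counting used strand, such reads may include those of the partner gene.

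Promoters of 4 members on which the results below turn are shown because 3 of them, Cntn6, Clstn2 and Adgrl2, were high together in M1-like nuclei and the fourth, Tenm3, was among the genes most reduced in projection neurons. Each runs 5′ to 3′ from 250 bases before to 50 bases after a RefSeq start (GRCm38.p6), and capitals mark a match to a searched motif on either strand. The windows lie at chr6:104492794-104493093 (plus strand), chr9:98033118-98033417 (minus), chr3:148954586-148954885 (minus) and chr8:48674641-48674940 (minus), and the windows of Adgrl2 and Tenm3 are at starts inside the annotated gene.
Cntn6: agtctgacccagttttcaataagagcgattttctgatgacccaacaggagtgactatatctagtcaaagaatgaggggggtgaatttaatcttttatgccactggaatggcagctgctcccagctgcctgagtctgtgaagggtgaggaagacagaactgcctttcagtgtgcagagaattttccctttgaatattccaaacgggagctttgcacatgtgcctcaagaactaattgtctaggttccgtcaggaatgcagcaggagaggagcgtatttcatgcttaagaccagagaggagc
Clstn2: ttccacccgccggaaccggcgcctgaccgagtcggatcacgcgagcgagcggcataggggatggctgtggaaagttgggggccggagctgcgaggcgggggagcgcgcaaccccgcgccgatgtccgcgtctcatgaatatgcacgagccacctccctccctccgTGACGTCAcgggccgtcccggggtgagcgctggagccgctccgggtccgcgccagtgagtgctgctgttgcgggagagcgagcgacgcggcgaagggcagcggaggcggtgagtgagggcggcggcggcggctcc
Adgrl2: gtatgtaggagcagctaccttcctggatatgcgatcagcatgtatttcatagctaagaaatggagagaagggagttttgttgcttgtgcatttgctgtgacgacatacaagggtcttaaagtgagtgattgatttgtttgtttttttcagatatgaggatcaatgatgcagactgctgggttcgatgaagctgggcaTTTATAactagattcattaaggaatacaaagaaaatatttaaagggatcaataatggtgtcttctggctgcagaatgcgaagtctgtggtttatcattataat
Tenm3: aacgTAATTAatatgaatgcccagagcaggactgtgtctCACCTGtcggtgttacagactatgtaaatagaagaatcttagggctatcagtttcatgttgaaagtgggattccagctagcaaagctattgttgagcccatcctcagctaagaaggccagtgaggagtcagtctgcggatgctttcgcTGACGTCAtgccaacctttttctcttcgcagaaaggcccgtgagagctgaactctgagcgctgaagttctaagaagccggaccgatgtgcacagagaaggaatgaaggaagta

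In these windows the capitals mark the cyclic AMP response element TGACGTCA in Clstn2, the TATA box TATAAA read on the opposite strand in Adgrl2, and in Tenm3 the homeobox core TAATTA, the E-box CAGGTG read on the opposite strand and TGACGTCA. None of the searched motifs was found in the Cntn6 window. RefSeq windows were found for 39 of the 52 members, 54 windows in all. TGACGTCA was in 5 of these 54 (9.26%) and in 1.79% of all 32851 windows, TATAAA in 5 (9.26%) against 13.6%, CAGGTG in 9 (16.7%) against 20.2% and TAATTA in 2 (3.70%) against 5.29%. The Ebf palindrome and the T-box element AGGTGTGA were in 0 of the 54, and in 0.904% and 1.28% of all windows. A match of this kind is a description of letters and not of binding.

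Nearly every member differed among the 7 projection neuron types. Of 49 members with enough counts to test, 47 (adjusted p under 0.05, edgeR quasi-likelihood test) differed, against 64.8% of all 14696 genes tested. Of these calls, Slitrk4, Slitrk5 and Clstn1 were lost when a mouse was left out (adjusted p up to 0.11, 0.18 and 0.16). The latrophilin Adgrl1 (adjusted p = 0.097, and 0.019 with the mouse as a replicate block, by which it passed) and Il1rapl2 (adjusted p = 0.6) did not pass, and Adgrl4, C1ql2 and Slitrk6, with at most 2.82 CPM in any library, were not tested. Clusters were formed on these same counts, so that p-values between types describe the clusters and do not test that they exist. The difference between a member's highest and lowest type had a median of 3.06 on the log2(CPM + 1) scale, against 1.22 over all genes tested, and the members' median within mouse 1, 2 and 3 was 3.33, 2.65 and 3.08. In 23 of the 49 the highest type was more than 10-fold above the lowest, and in 9 the ratio was under 2. In 21 members all 3 libraries of the highest type lay above all 18 others, as they did in 18.0% of all genes tested. Where these 7 types are compared below, other libraries are those of the 7 types alone, and not of inhibitory or glial clusters. M1-like nuclei were the highest type for 16 of these 49 members, ET2-like for 11, M3-like for 10, ET1-like for 5, M2-like for 3, and T1-like and ET4-like for 2 each. For Flrt2, Nlgn2 and Nlgn3 the M1-like mean was the highest only through the small M1-like library of mouse 1.

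**Figure D1:**
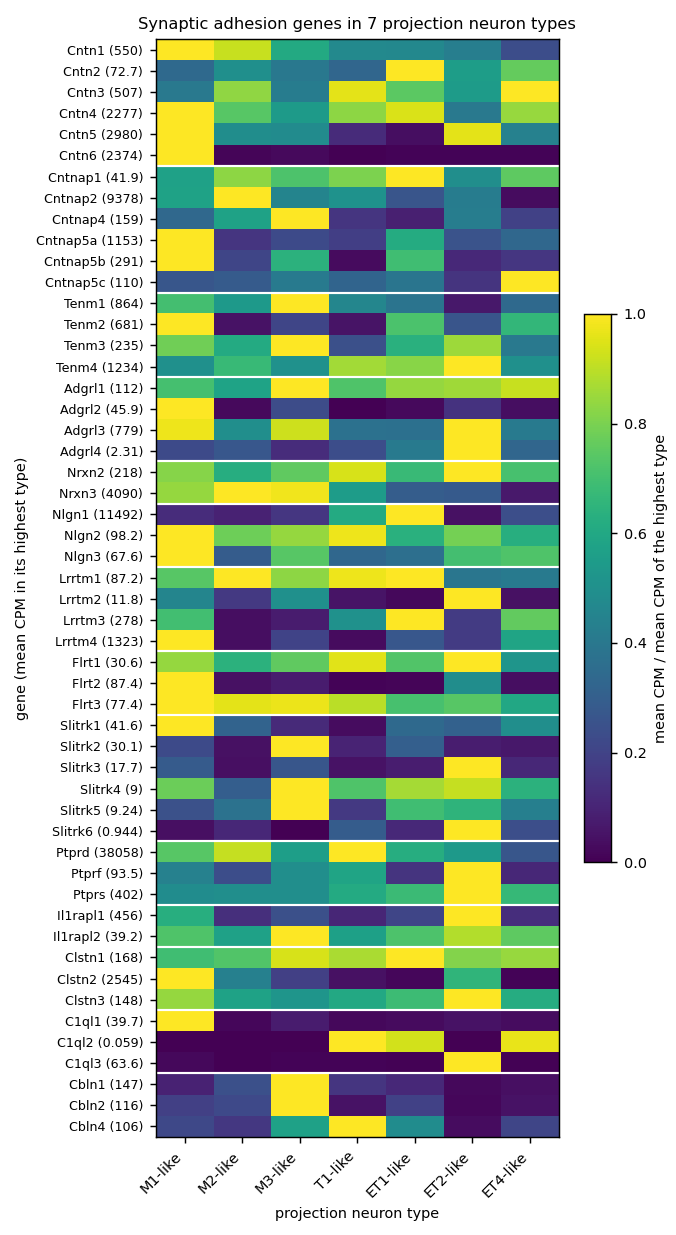
Heat map of the 52 genes (rows, by family) in the 7 projection neuron types (columns), coloured by mean CPM over 3 mice divided by the mean of the gene's highest type, which is printed beside the gene name. M1-like nuclei are the highest type of 16 tested genes and ET2-like nuclei of 11.

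More members were called higher in M1-like nuclei than in any other type. Against the mean of the other 6 types 17 members were higher (adjusted p under 0.05 and more than 2-fold, the rule for all calls below; background 7.81% of genes) and 1 was lower (background 4.04%), and all 18 calls held without the small library of mouse 1. Leaving out a whole mouse took Nrxn3 to 0.98 (mouse 1), Cntn3 to -0.70 (mouse 2) and Cntn1 to 0.92 (mouse 3), each under 2-fold. The higher members were the contactins Cntn1, Cntn5 and Cntn6, the contactin-associated genes Cntnap5a and Cntnap5b, Tenm2, the latrophilin Adgrl2, Nrxn3, Lrrtm2, Lrrtm3 and Lrrtm4, Flrt2, Slitrk1 and Slitrk3, Il1rapl1, Clstn2 and C1ql1, and the lower member was Cntn3. Cntn6, Adgrl2 and C1ql1 are on the study's own M1 list, which was drawn on these samples, so their direction here is not independent evidence.

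Cntn6, an axonal contactin and Notch ligand, had 377, 3458 and 3285 CPM in M1-like nuclei, and the 18 libraries of the other types lay between 5.57 and 73.3 CPM. All 3 M1-like libraries were above every other library, and the 14-nucleus library of mouse 1 was the lowest of them. Cntn6 was among the 10 leading genes of this subcluster, and its difference of 6.72 ± 0.31 (log2, SE) is given as a description; without the library of mouse 1 it was 7.20. C1ql1, a secreted ligand of Adgrb3, had 0, 59.1 and 59.97 CPM in M1-like nuclei and at most 4.83 CPM in any other library. The 0 came from the small library, in which no C1ql1 UMI was counted, so that the groups overlapped, and the difference was 5.13 ± 0.32 (adjusted p = 2.7e-12). Adgrl2, a latrophilin that binds teneurins and Flrt proteins, had 18.6, 51.5 and 67.7 CPM in M1-like nuclei and 0, 0.177 and 0 in T1-like nuclei. M1-like libraries were above all others, of which the highest was an M3-like library at 16.8 CPM (difference 5.13 ± 0.31, adjusted p = 1.9e-12).

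Other members were high in M1-like nuclei without being restricted to them. Lrrtm4, a postsynaptic ligand of neurexins and heparan sulphate, had 1275, 1197 and 1496 CPM in M1-like nuclei and 841, 694 and 787 in ET4-like nuclei, and all other libraries were at or below 433. Slitrk1, a postsynaptic ligand of the LAR-type phosphatases, had 37.1, 44.2 and 43.4 CPM in M1-like nuclei, above every other library. Clstn2, a calsyntenin of the postsynaptic membrane, had 1238, 2966 and 3430 CPM in M1-like nuclei but also 1684, 1657 and 1661 in ET2-like nuclei, so that the library of mouse 1 overlapped with ET2-like ones.

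A pair of M1 calls moved when nuclei were left out. Flrt2, a ligand of latrophilins and Unc5 receptors, had 235 CPM (38 UMIs) in the library of mouse 1 and 14.6 and 12.6 CPM in those of mouse 2 and 3, and its difference of 2.97 moved to 1.80 (adjusted p = 0.0016) without that library. Il1rapl1, a postsynaptic partner of Ptprd, had 260, 449 and 149 CPM in M1-like nuclei. Its difference of 1.53 became -0.02 (adjusted p = 0.98) when nuclei with UMIs of both kinds were left out, and Tenm3 went from 0.32 to -1.36 (adjusted p = 0.0098) by the same step. Both genes were abundant in inhibitory clusters, as given below, and Gad1 stood at 37.1, 104 and 35.3 CPM in the M1-like libraries.

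In M2-like nuclei 7 members were higher (background 6.83%) and 10 were lower (background 5.29%). The higher ones were Cbln1 and Cbln2, Clstn2, Cntn1, Cntnap2, Cntnap4 and Nrxn3, and the lower ones were C1ql1, C1ql3, Cntnap5a, Lrrtm3, Lrrtm4, Nlgn1, Slitrk2, Slitrk3, Slitrk4 and Tenm2. Cntnap2, a neurexin-like protein that clusters potassium channels along axons, had 8930, 9492 and 9712 CPM in M2-like nuclei against 276, 304 and 316 in ET4-like nuclei. The M2-like libraries were above all 18 others (difference 2.02 ± 0.11, adjusted p = 1.6e-13), and the ET4-like ones below all others. Clstn2 had 1174, 1088 and 1049 CPM in M2-like nuclei, between the M1- and ET2-like types on the high side and the remaining types at 554 or less (difference 2.25 ± 0.18, adjusted p = 3.5e-10). Tenm2, a teneurin that binds latrophilins, was low in M2-like nuclei, at 19.9, 49.3 and 29.9 CPM. Leaving out a mouse took 5 of these calls: C1ql1 (adjusted p = 0.11 and 0.076 without mouse 2 and 3), C1ql3 (-0.45 without mouse 2), and Cntnap5a, Slitrk4 and Cbln2 (-0.94, -0.97 and 0.84 without mouse 3). Without nuclei with UMIs of both kinds Nlgn1 (-0.99) and Slitrk4 (-0.84) fell under 2-fold, and C1ql3 no longer passed. The C1ql3 call is a description, for the reason given with ET2-like nuclei.

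In M3-like nuclei Cbln1 and Cbln2, secreted cerebellins that bind neurexins, were at their highest among the 7 types. This was the shallowest of the 7 types, with medians of 6866, 5661.5 and 4402 UMIs per nucleus. In all 9 members were higher (background 5.37%), namely Cbln1, Cbln2 and Cbln4, Adgrl2, Cntnap4, Cntnap5b, Nrxn3, Slitrk2 and Tenm1, and 2, Lrrtm3 and Slitrk1, were lower (background 3.20%). Cbln1 had 231, 78.6 and 132 CPM in M3-like nuclei and at most 44.1 CPM in the other projection neuron types. Cbln2 had 180, 106 and 62.8 CPM there and at most 34.1 CPM in the other projection neuron types. Outside these types, inhibitory cluster 12 had a mean Cbln2 of 106 ± 66.2 (SD) CPM. Both cerebellins lay above all 18 other libraries in each of the 3 M3-like libraries, although the M3-like values themselves spread by nearly 3-fold. As they were among the 10 leading genes of that subcluster, their differences of 3.22 ± 0.22 and 3.33 ± 0.27 are descriptions. Slitrk2 had 32.7, 31.8 and 25.8 CPM in M3-like nuclei and at most 11.7 CPM in the other types. Tenm1 had 763, 904 and 926 CPM there, again above every other library. The Cbln4 call was lost without mouse 1, at 0.62 (adjusted p = 0.2), that of Adgrl2 without mouse 2 (2.06, adjusted p = 0.12) and that of Nrxn3 without mouse 3 (0.99). Slitrk1 was lost without mouse 1 or 2 (adjusted p = 0.09 and 0.11) and without nuclei with UMIs of both kinds (adjusted p = 0.15).

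T1-like nuclei showed the opposite balance, with 4 members higher (background 6.68%) and 17 lower (background 5.50%). Cbln4, a cerebellin that binds neurexins and Dcc, had 111, 93.4 and 114 CPM in T1-like nuclei against 4.63, 5.42 and 0 CPM in ET2-like nuclei (difference 2.46 ± 0.15, adjusted p = 1.8e-12). The M3-like library of mouse 1, at 98.0 CPM, overlapped with the T1-like range. Nlgn1, a neuroligin of excitatory synapses, had 6639, 7462 and 6929 CPM in T1-like nuclei, below the ET1-like libraries and above all the rest (difference 2.02 ± 0.15, adjusted p = 2.6e-11). The other higher members, Lrrtm3 and Ptprf, passed the 2-fold limit by little and were lost with library sizes alone, at 0.88 and 0.89. Ptprf was also lost with the mouse as a replicate block, at 0.98. The lower members were Adgrl2, C1ql1, Cbln2, Clstn2, Cntn5, Cntn6, Cntnap4, Cntnap5b, Flrt2, Il1rapl1, Lrrtm2, Lrrtm4, Slitrk1, Slitrk3, Slitrk5, Tenm2 and Tenm3. Among them Cntnap5b had 7.94, 10.2 and 8.55 CPM in T1-like nuclei and at least 28.9 CPM in every other library. Without a mouse, Slitrk5 (mouse 1, adjusted p = 0.079), Il1rapl1 (mouse 1, adjusted p = 0.066), Cntnap4 (mouse 2, -0.91), Lrrtm2 (mouse 2, adjusted p = 0.99), Cbln2 (mouse 2, adjusted p = 0.063) and C1ql1 (mouse 2 and 3, adjusted p = 0.24 and 0.3) were lost, as were Lrrtm3 and Ptprf without mouse 1 (0.81 and 0.86). Without nuclei with UMIs of both kinds Cntnap4 (-0.55), Tenm3 (-0.82), Adgrl2, Flrt2, Il1rapl1 and C1ql1 were lost, the last 4 with adjusted p of 0.1 or above.

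ET1-like nuclei had the highest Nlgn1. It reached 11080, 12045 and 11351 CPM there, while ET2-like nuclei had 612, 535 and 365 CPM. The ET1-like libraries were above and the ET2-like libraries below all others, and since Nlgn1 was among the 10 leading genes of the ET1-like subcluster the difference of 2.80 ± 0.14 is a description. Lrrtm3, a neurexin ligand of excitatory synapses, had 293, 303 and 236 CPM in ET1-like nuclei (difference 2.10 ± 0.26, adjusted p = 7.9e-07), a range that the M1-like library of mouse 2 reached at 277 CPM. In all 8 members were higher (background 5.17%), which besides these were Cbln4, Cntn2, Cntnap5a, Cntnap5b, Slitrk2 and Tenm2. The 5 lower members (background 3.44%) were Clstn2, Cntn5, Cntnap4, Lrrtm2 and Ptprf, and with the mouse as a block Cntn6 joined them (-1.11, adjusted p = 0.044). The Slitrk2 call was lost without mouse 3 (0.90) and without nuclei with UMIs of both kinds (adjusted p = 0.063), which also took Cbln4 (0.87). Cntn5, a contactin found along sensory pathways, was at 114, 121 and 113 CPM in ET1-like nuclei, below all other libraries, and at 2751, 2913 and 2900 CPM in ET2-like nuclei.

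ET2-like nuclei carried C1ql3, which the other types nearly lacked. C1ql3, a secreted relative of C1ql1, had 67.1, 63.0 and 60.7 CPM in ET2-like nuclei and at most 3.23 CPM in any other library. It had enough counts to test only because of the ET2-like libraries. Its difference of 6.53 ± 0.30, and its call as lower in M2-like nuclei, are therefore descriptions. Flrt2 had 44.0, 14.7 and 69.8 CPM there (difference 3.31 ± 0.53, adjusted p = 2.1e-05), a spread that overlapped with the M1-like libraries. Slitrk3, a Slitrk that binds Ptprd and is known at inhibitory synapses, had 21.99, 19.9 and 11.3 CPM in ET2-like nuclei, above all other libraries. The phosphatase Ptprf had 106, 80.3 and 93.8 CPM there, likewise above all others. In all 9 members were higher (background 7.64%), the others being Adgrl2, Clstn2, Cntn5, Il1rapl1 and Lrrtm2.

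The 9 members lower in ET2-like nuclei (background 6.18%) were Cbln1, Cbln2 and Cbln4, Cntn4, Cntnap5b, Cntnap5c, Lrrtm1, Nlgn1 and Tenm1, and with the mouse as a block Cntn6 joined them (-1.36, adjusted p = 0.017). Tenm1 had 66.0, 61.9 and 38.8 CPM there and at least 259 CPM in every other library. The ET2-like library of mouse 2 was the highest of its type for some members that were abundant in inhibitory clusters, and not for others. Flrt2, which was also called higher in inhibitory neurons, was lowest in that library. Nrxn3 had 748, 2311 and 431 CPM in the ET2-like libraries, Lrrtm4 had 145, 433 and 107, and Gad1 had 106, 162 and 44.4. Without nuclei that carried UMIs of both kinds, the ET2 difference of Nrxn3 went from -0.73 to -2.30 (adjusted p = 1.4e-06) and that of Lrrtm4 from -0.10 to -1.59 (adjusted p = 0.0010). Il1rapl1, at 354, 833 and 180 CPM, kept its ET2 call by that step, with 1.54 in place of 2.26. The Adgrl2 call was lost by it (1.76, adjusted p = 0.12) and without mouse 2 (0.86), where Cntn4 (-0.86) and Lrrtm1 (-0.99) also fell under 2-fold.

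In ET4-like nuclei 4 members were higher (background 8.72%) and 13 were lower (background 9.32%). Lrrtm4 was higher by 1.84 ± 0.26 (adjusted p = 1.8e-06), from the values given above. Cntnap5c, a contactin-associated protein of the neurexin superfamily, had 120, 104 and 106 CPM in ET4-like nuclei and at most 56.5 CPM in the other projection neuron types (difference 1.59 ± 0.15, adjusted p = 1.9e-09). Lrrtm3 and Tenm2 completed the higher group. The lower members were Cbln1, Cbln2, Clstn2, Cntn1, Cntn6, Cntnap2, Il1rapl1, Lrrtm1, Lrrtm2, Nrxn3, Ptprd, Ptprf and Slitrk2. Cntn1, which forms axonal complexes with contactin-associated proteins, had 134, 134 and 119 CPM there, below all other libraries. Ptprd, a LAR-type phosphatase and presynaptic hub, had 8661, 10734 and 11113 CPM in ET4-like nuclei and at least 19345 CPM in all others. The ET4 and T1 calls of Il1rapl1 were lost without nuclei with UMIs of both kinds, at -0.32 and -0.59, and the Cntn6 call was lost without mouse 2 (-0.96) or mouse 3 (adjusted p = 0.13). Leaving out mouse 1 took Lrrtm2 (adjusted p = 0.08) and Il1rapl1 (-0.83), and leaving out mouse 2 took Lrrtm1 (-0.98), Lrrtm2, Slitrk2 (adjusted p = 0.056) and Cbln2 (adjusted p = 0.086).

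**Figure D2:**
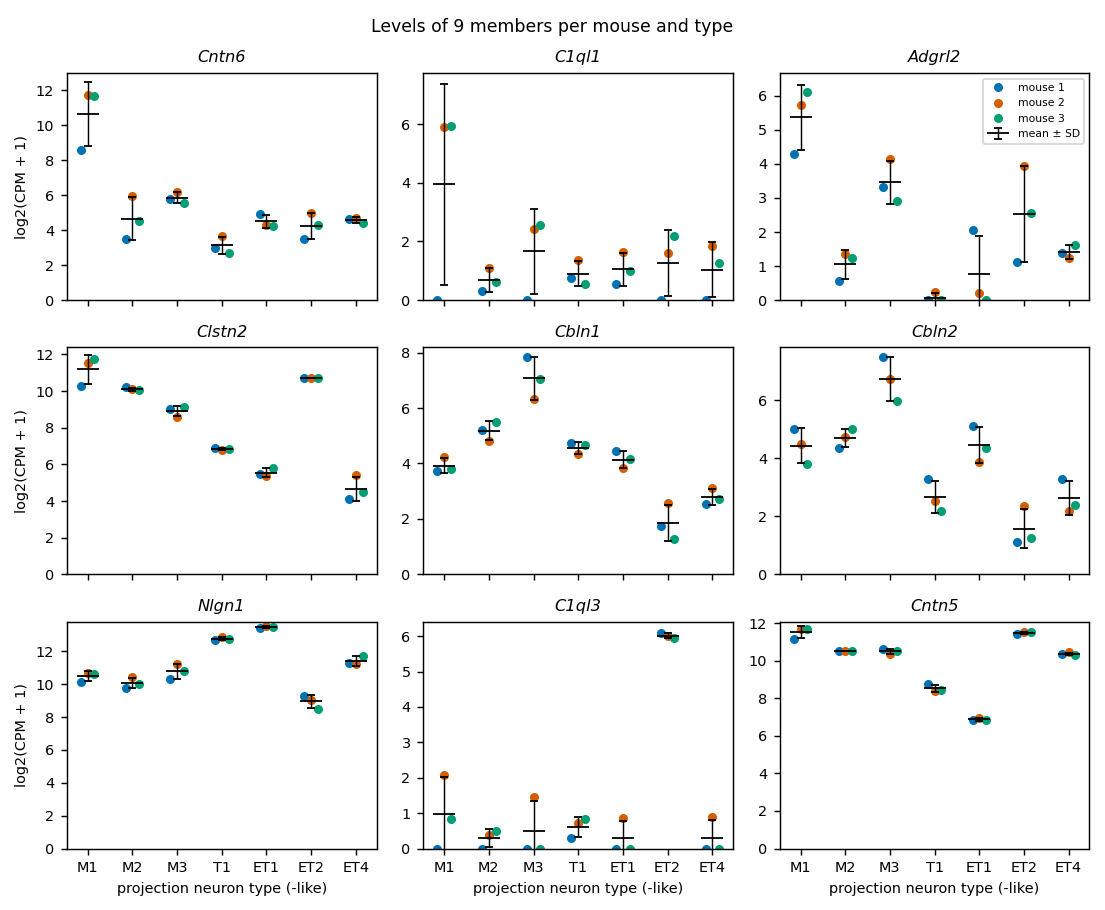
Values of 9 members in the 7 projection neuron types, on a log2(CPM + 1) axis, with a point per mouse and bars for mean ± SD of 3 mice. Cntn6 and Adgrl2 peak in M1-like, Cbln1 and Cbln2 in M3-like, Nlgn1 in ET1-like and C1ql3 in ET2-like nuclei, and the M1-like library of mouse 1 is the low point for C1ql1.

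Of the 49 members tested over the 7 types 20 were called higher in no type (68.3% of all genes tested), 8 in 1 type (19.0%), 14 in 2 types (9.25%), 6 in 3 types (3.06%), and Lrrtm3 in 4 (0.374%). By the ratio of the highest to the lowest type mean, the most even of these 49 members were Clstn1, Nlgn2 and Nrxn2. Over the 21 libraries the neurexin Nrxn2 was at 132 to 228 CPM. The neuroligin Nlgn2 of inhibitory synapses was at 47.7 to 124 CPM, and the calsyntenin Clstn1 at 102 to 208 CPM. By the mean of 3 mice, highest types were shared within some families and not within others. Of the contactins, Cntn1, Cntn4, Cntn5 and Cntn6 had their highest mean in M1-like nuclei, but the M1-like libraries of Cntn4 overlapped with ET1-like ones and those of Cntn5 with ET2-like ones. Nlgn1 was highest in ET1-like nuclei, whereas Nlgn3 had 105, 44.9 and 52.6 CPM in M1-like nuclei and 17.5, 19.9 and 21.97 in M2-like nuclei. Among the teneurins Tenm1 had its highest mean in M3-like, Tenm2 in M1-like and Tenm4 in ET2-like nuclei, the last with 1212, 1150 and 1340 CPM. Tenm3, with 187, 250 and 267 CPM in M3-like nuclei, was not called there (0.69, adjusted p = 0.094), and its highest library was the ET2-like one of mouse 2 at 387 CPM.

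A contrast of the mitral-like with the tufted-like types took the mean of M1, M2 and M3 against the mean of T1, ET1, ET2 and ET4. Of the 49 members tested 14 were higher in mitral-like types (background 5.53%) and 2 were higher in tufted-like types (background 3.81%). The 14 were Cntn1, Cntn5 and Cntn6, Cntnap2, Cntnap4 and Cntnap5b, Tenm1, Adgrl2, Nrxn3, Lrrtm2, Clstn2, C1ql1, Cbln1 and Cbln2. In 3 of them, Cntn1, Tenm1 and Nrxn3, none of the 9 mitral-like libraries overlapped with the 12 tufted-like libraries, against 7.13% of all genes called in this direction. Nrxn3, a presynaptic neurexin, ranged from 2476 to 4228 CPM with a median of 3947 in mitral-like libraries and from 165 to 2332 with a median of 1167 in tufted-like ones (difference 1.94 ± 0.18, adjusted p = 3.6e-09). Tenm1 had 442 to 926 CPM with a median of 621 against 38.8 to 418 with a median of 327 (1.503 ± 0.083, adjusted p = 2e-13). Cntn1 had 298 to 575 CPM with a median of 509 against 119 to 272 with a median of 247 (1.07 ± 0.07, adjusted p = 1.1e-12). The median difference was 0.20 over the members and -0.03 over all genes tested.

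The differences of greatest size came from members that marked 1 or 2 of the mitral-like types. Cntn6 differed by 3.22 ± 0.34 (adjusted p = 2.8e-08), with medians of 60.5 and 18.6 CPM and M1-like nuclei far above the rest. Clstn2 differed by 3.14 ± 0.16 (adjusted p = 5.1e-14), with medians of 1088 and 81.6 CPM, but the ET2-like libraries exceeded all M2- and M3-like ones. Adgrl2 differed by 3.10 ± 0.43 (adjusted p = 2.3e-06) with medians of 9.08 and 1.26 CPM, and was low in M2-like nuclei at 0.477, 1.58 and 1.34 CPM. Cbln2 differed by 2.50 ± 0.22 (adjusted p = 1.2e-09), with medians of 30.9 and 4.48 CPM. Cbln1 differed by 2.13 ± 0.18 (adjusted p = 4.9e-10), with medians of 36.2 and 10.4 CPM. The groups overlapped in each of these 5 members. C1ql1 had medians of 1.16 and 1.18 CPM, and its high values were those of M1-like nuclei. Its call (1.70, adjusted p = 0.015) was lost without mouse 2, without mouse 3 or without nuclei with UMIs of both kinds (adjusted p = 0.096, 0.13 and 0.061).

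Lrrtm3 and Nlgn1 were the members higher in tufted-like types. Lrrtm3 was higher by 1.86 (-1.86 ± 0.25, adjusted p = 2.1e-06), with medians of 20.2 CPM in mitral-like and 173 CPM in tufted-like libraries. The groups overlapped, because M1-like nuclei had 74.3, 277 and 229 CPM. Nlgn1 differed by -1.21 ± 0.12 (adjusted p = 2e-08), with medians of 1373 and 5028 CPM. The ET2-like libraries, at 612 CPM or less, went against the direction of the other tufted-like types. Groups overlapped in both members, and did not overlap in 3.75% of all genes called in this direction.

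**Figure D3:**
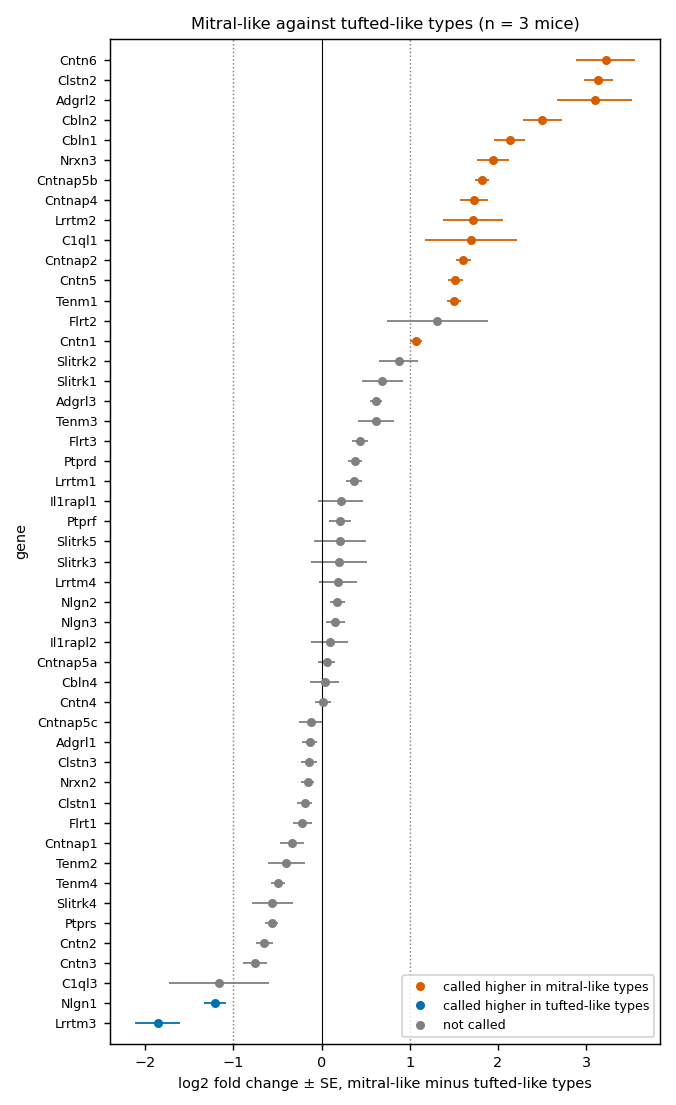
Difference between mitral-like and tufted-like types (log2, mean of 3 types minus mean of 4 types) for the 49 members tested, with bars of ± SE, coloured by call. Cntn6, Clstn2 and Adgrl2 lie above 3, and Lrrtm3 and Nlgn1 are the members called on the tufted side.

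On the side of projection neurons were 3 of 6 contactins, 2 of 3 neuroligins and 2 of 3 cerebellins. On that of inhibitory neurons were all 6 Slitrk genes, Slitrk6 only as a description, and both Il1rapl genes. With counts summed over the 7 types and over the 10 inhibitory clusters in each mouse, all 52 members were tested, 15 were higher in projection neurons (background 15.4%) and 19 were higher in inhibitory neurons (background 13.9%). The median size of the difference was 1.80 over the members and 0.55 over all genes, on the log2 scale and without regard to sign. Values did not overlap between the groups in 14 of the 15 and in 18 of the 19, against 97.3% and 99.4% of all genes called in these directions. Gad1, which makes the inhibitory transmitter, had means of 30.4 to 104 CPM in the projection types and 318 to 1189 CPM in the inhibitory clusters, and all of these calls but that of Slitrk6 held without nuclei with UMIs of both kinds.

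Ptprd had 30211, 30299 and 31912 CPM in projection neurons against 730, 455 and 1169 in inhibitory neurons. The groups were far apart in each mouse (5.37 ± 0.35, adjusted p = 9.5e-06), and without nuclei with UMIs of both kinds the difference was 5.78. The related phosphatases differed little: Ptprf, at 42.1, 36.6 and 37.0 against 38.5, 36.5 and 33.3 CPM, did not pass, and Ptprs differed by 0.41 (adjusted p = 0.0024). Cbln4 had 55.7, 46.4 and 56.1 against 2.66, 4.01 and 3.19 CPM (4.03 ± 0.18, adjusted p = 2.3e-06). Cbln1 had 30.6, 18.6 and 27.2 against 3.40, 4.46 and 4.65 CPM (2.67 ± 0.22, adjusted p = 3e-05). Cbln2 did not follow them, with 19.0, 14.4 and 14.8 against 22.6, 15.8 and 13.9 CPM and overlapping groups. Cntn4, a contactin that binds amyloid precursor proteins, had 1889, 1792 and 1843 against 209, 118 and 186 CPM (3.51 ± 0.20, adjusted p = 5.2e-06). Cntnap5a had 279, 452 and 442 against 55.5, 34.9 and 106 CPM (2.66 ± 0.40, adjusted p = 0.00077). The other higher members were Cntn2, Cntn3, Cntnap1, Cntnap2, Tenm1, Adgrl2, Nlgn1, Nlgn2, Lrrtm1 and Clstn2. Adgrl2 was the call with overlapping groups, at 1.03, 10.3 and 12.8 against 2.22, 1.48 and 1.88 CPM, and it was lost without mouse 2 or mouse 3 (adjusted p = 0.15 and 0.13).

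Cntn6 was not called between these groups. It had 16.1, 582 and 592 CPM in projection neurons and 103, 59.2 and 81.3 CPM in inhibitory neurons (2.38 ± 0.99, adjusted p = 0.069), and mouse 1, with 14 M1-like nuclei, was on the other side from mouse 2 and 3. Without mouse 1 it passed, at 3.13 (adjusted p = 0.0006).

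The Slitrk and Il1rapl genes encode postsynaptic ligands of the phosphatases. All 6 and both of them were higher in inhibitory neurons, Slitrk6 as a description for the reason given below. Ntrk3, a partner gene that also binds Ptprs, was called higher in projection neurons (1.76, adjusted p = 5.1e-06). Il1rapl1 had 65.1, 199 and 72.3 CPM in projection neurons against 4562, 4885 and 4738 in inhibitory neurons (-5.32 ± 0.47, adjusted p = 4.5e-05). Il1rapl2 had 25.8, 30.5 and 23.5 against 352, 312 and 353 CPM (-3.59 ± 0.12, adjusted p = 1.1e-06). Slitrk5 had 3.61, 4.64 and 2.18 against 43.7, 37.3 and 36.7 CPM (-3.39 ± 0.24, adjusted p = 1.4e-05). The groups were apart in these 3 genes in every mouse. Slitrk6 was near the limit of detection, at 0.086, 0.406 and 0.106 against 0.370, 0.854 and 1.60 CPM with overlapping groups, and its call was lost without mouse 1, without mouse 3 or without nuclei with UMIs of both kinds (adjusted p = 0.056, 0.19 and 0.27). Only because of the inhibitory libraries did Slitrk6 have enough counts to test. Its call and its place in the counts above are therefore descriptions.

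Tenm3 and the remaining inhibitory-side members were lower in projection neurons in every mouse. Tenm3 had 93.4, 158 and 98.1 CPM in projection neurons against 1844, 2516 and 1846 in inhibitory neurons (-4.08 ± 0.26, adjusted p = 9e-06). C1ql2, a synaptic organiser related to C1ql3, was sparse, at 0, 0.0966 and 0 against 0.672, 0.575 and 0.710 CPM. It had enough counts to test only because of the inhibitory libraries. Its difference of -3.63 ± 0.63, and its place in the count of calls, are therefore descriptions. The others were Cntnap4 and Cntnap5c, Tenm2, Adgrl4, Nrxn3, Lrrtm2, Lrrtm3 and Lrrtm4, and Flrt2. Lrrtm4 had 176, 390 and 353 CPM in projection neurons against 2493, 2622 and 2780, whereas its relative Lrrtm1 had 80.8, 67.0 and 74.2 against 14.9, 13.5 and 16.2, so that the Lrrtm family was divided between the groups. Nrxn3 had 2624, 2550 and 2500 against 11120, 14126 and 12542 CPM. Of the 18 members not called, 11 still had groups that did not overlap, at differences of less than 2-fold, against 52.6% of all genes not called.

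**Figure D4:**
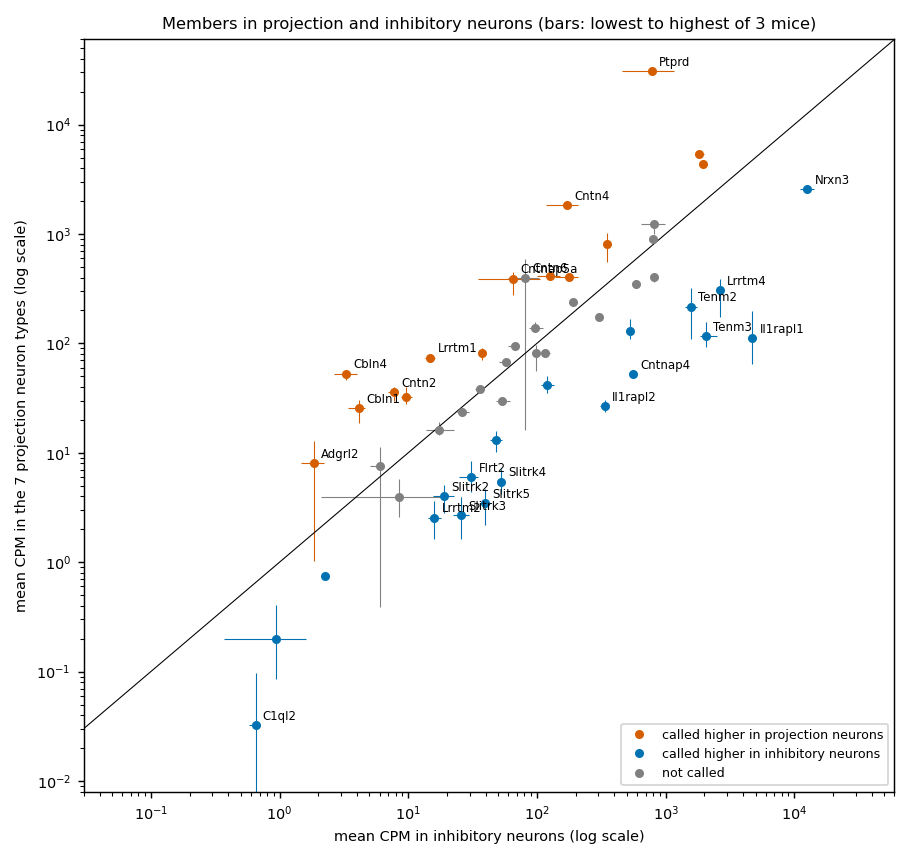
Mean CPM of the 52 members in inhibitory neurons (x) and projection neurons (y), both axes logarithmic, with bars from the lowest to the highest of 3 mice, coloured by call and labelled where the difference exceeds 2 on the log2 scale. Ptprd, Cbln4 and Cntn4 lie above the diagonal, and Il1rapl1, Tenm3 and Il1rapl2 lie below it.

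Members also differed among the 10 inhibitory clusters. Of 51 tested, 49 differed (background 59.2%), and Nlgn3 (adjusted p = 0.062, and 0.0087 with the mouse as a block, by which it passed) and Cbln4 (adjusted p = 0.12) did not. Slitrk3 was lost without any of the mice (adjusted p = 0.12 to 0.15) and Ptprs without mouse 1 or 2 (adjusted p = 0.054 and 0.12). Il1rapl2 had a wide range, 3947 ± 449 (SD) CPM in cluster 15, whose leading genes included Vip, Pnoc and Sst, against 24.7 CPM in cluster 0 (adjusted p = 3.4e-21). Cluster 12 was next, with 2370, 2257 and 2915 CPM, and Il1rapl2 was among its own 10 leading genes. Adgrl2 had 18.9, 7.32 and 8.58 CPM in cluster 8 and no UMI in cluster 17 (adjusted p = 6.4e-10). Slitrk6 had 3.97, 11.7 and 11.4 CPM in cluster 8 and no UMI in clusters 12, 15 and 17. It had enough counts to test only because of cluster 8, so its place among the 49 is a description. Cluster 8 thus held the highest inhibitory level of both genes, and its leading genes included Calb1 and Foxp2.

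Members that were lower in inhibitory than in projection neurons were not low in each inhibitory cluster. Nlgn1 had 8777, 6988 and 8895 CPM in cluster 10, beside 6639 to 7462 CPM in T1-like nuclei, and 83.0, 271 and 104 in cluster 15. By the naming rule cluster 10 carried 6 of the 8 inhibitory markers, a score that the astrocyte-like cluster reached too. Cntn3 had 1517, 1374 and 1643 CPM in cluster 17, above any projection neuron library, and 11.6, 21.7 and 6.48 in cluster 15. C1ql3, which was not called between projection and inhibitory neurons but singled out ET2-like nuclei among the former, had 40.2, 4.75 and 120 CPM in cluster 8, where the mice differed widely. Il1rapl1, in contrast, was at 680 CPM or above in the mean of every inhibitory cluster.

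Neurons and glia were compared with 7 groups per mouse, projection neurons and inhibitory neurons against astrocyte-like, ensheathing-glia-like, oligodendrocyte-like, oligodendrocyte-precursor-like and microglia-like clusters. Of 49 members tested 20 were higher in neurons (background 10.2%) and 2 in glia (background 9.57%), and with library sizes alone, or without mouse 1, the 20 became 13. Glial libraries were small, from 61554 UMIs, and neuronal RNA was counted in them. Gad1 had means of 157 to 253 CPM and Slc17a7 of 29.7 to 80.6 CPM in the glial clusters, and in the microglia-like libraries Ptprd stood at 5767, 2216 and 17737 CPM. The part of this in the glial values was not tested, and is given beside these comparisons for that reason.

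On the neuronal side were 5 of 6 contactins and 5 of 6 contactin-associated genes. Cntn5 had 996, 1329 and 1341 CPM in projection neurons and 806, 640 and 995 in inhibitory neurons, while the 15 glial libraries lay between 40.8 and 727 CPM, the highest a microglia-like library above the inhibitory library of mouse 2 (2.81 ± 0.28, adjusted p = 1.7e-08). Cntnap5a was at 279, 452 and 442 CPM in projection neurons and at most 64.3 CPM in glia other than microglia-like nuclei, which reached 204 CPM, a range that overlapped with inhibitory neurons at 55.5, 34.9 and 106 CPM (2.45 ± 0.32, adjusted p = 1.2e-06). Clstn2 differed by 2.40 ± 0.26 (adjusted p = 8.5e-08), from 330 to 1023 CPM in neurons and 24.5 to 613 CPM in glia. Cntn6 differed by 2.12 ± 0.42 (adjusted p = 0.00019), although the oligodendrocyte-precursor-like libraries, at 141, 223 and 179 CPM, were above the inhibitory ones. Without mouse 1, 7 calls were lost: Cntn3, Cntnap5c, Nlgn1, Il1rapl2 and Cbln2 at 0.71 to 0.91, Cbln1 at 0.92 and Nrxn3 (adjusted p = 0.068). Nrxn3 and Cbln1 were also lost without mouse 3, at 0.99 and 0.94. With the mouse as a block Cbln1 was lost (0.98) and Cntnap4 passed (1.14).

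Cntn2, a contactin at the axon-myelin contact that neurons and myelinating glia both make, was called for neurons (2.14 ± 0.58, adjusted p = 0.0043) against its highest group. The oligodendrocyte-like libraries had 236, 180 and 207 CPM, projection neurons 40.1, 36.7 and 30.0 and inhibitory neurons 7.97, 6.98 and 8.34. All 3 microglia-like libraries were at 0, which enters the mean of the glial classes on the log scale. The call was lost with DESeq2, at 0.74 (adjusted p = 0.018, under 2-fold), and without mouse 2, at 2.19 (adjusted p = 0.054).

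The members called higher in glia were Slitrk2 and Il1rapl1. Slitrk2 had 85.2, 62.3 and 84.6 CPM in astrocyte-like nuclei against 2.84, 5.04 and 4.19 in projection neurons and 22.5, 15.6 and 19.2 in inhibitory neurons. The mean over glial classes gave -1.18 ± 0.32 (adjusted p = 0.0039), and without mouse 2 it reversed to 0.30 (adjusted p = 0.96), in libraries where oligodendrocyte- and microglia-like nuclei of mouse 1 and 3 held few or no UMIs. Il1rapl1 differed by -1.13 ± 0.29 (adjusted p = 0.0029), with projection neurons below and inhibitory neurons above every glial library. C1ql1 was at 244, 234 and 277 CPM in oligodendrocyte-precursor-like nuclei, above all neuronal and other glial libraries, and C1ql3 had 58.6, 72.2 and 57.1 CPM there.

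Seen over all 22 clusters, 26 members were highest in an inhibitory cluster, 11 in a projection neuron cluster, 7 in the oligodendrocyte-precursor-like cluster, 4 in the vascular cluster, and 1 each in the astrocyte-, ensheathing-glia- and oligodendrocyte-like clusters and in unnamed cluster 21. Of the 22 clusters 10 were inhibitory and 5 were projection neuron clusters. The share over all genes was not computed, so these counts only describe the members. Among the 7, C1ql2 rested on 6, 4 and 0 UMIs and Slitrk6 on 9, 10 and 0 UMIs, too few to rank. The 11 of the projection neuron clusters were Cntn4, Cntn6, Cntnap2, Cntnap5a, Nlgn2, Lrrtm1, Ptprd, Ptprs, Clstn2, Clstn3 and Cbln4. Adgrl4, an endothelial latrophilin relative, was not tested among projection neurons, where it had at most 2.82 CPM, and had a mean of 173 CPM in the vascular cluster. C1ql2 had 0 UMIs in M1-, M2-, M3- and ET2-like nuclei, and Slitrk6 had at most 2.31 CPM in any projection neuron library, so that differences between projection types in these genes were not detectable at this depth.

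**Figure D5:**
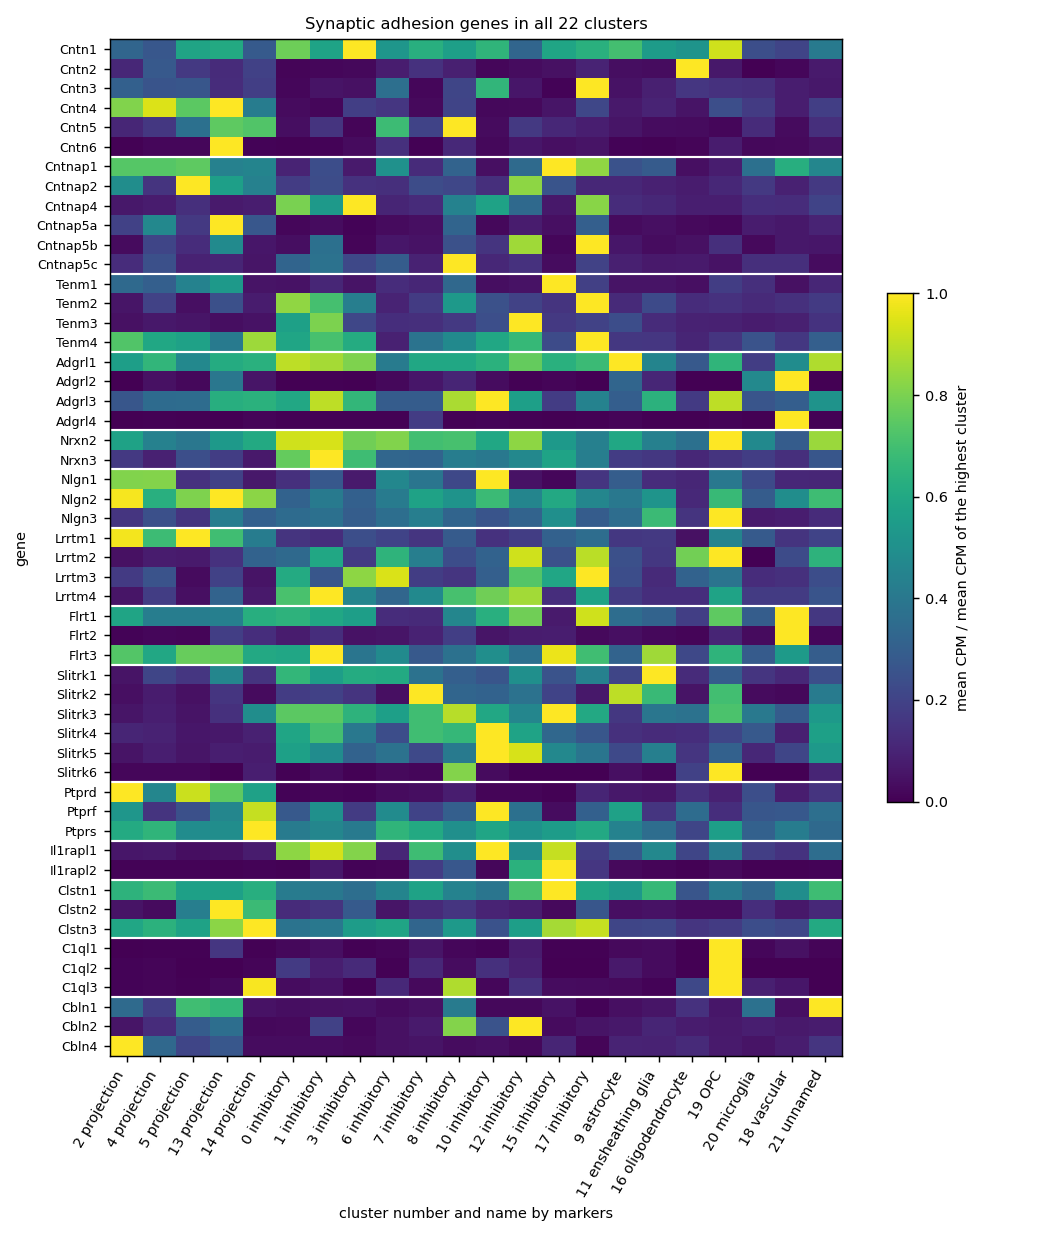
Heat map of the 52 genes (rows) in the 22 clusters (columns, grouped by class), coloured by mean CPM over 3 mice divided by the mean of the gene's highest cluster. The 10 inhibitory clusters hold the maximum of 26 genes and the 5 projection neuron clusters of 11. C1ql1 and C1ql3 are brightest in the oligodendrocyte-precursor-like cluster and Adgrl2, Adgrl4, Flrt1 and Flrt2 in the vascular cluster.

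Receptors, ligands and scaffolds that bind these molecules were taken as a list of 51 partner genes. Of 50 tested, 46 differed among the 7 types, against the background of 64.8% given above. Between mitral-like and tufted-like types 6 were higher in mitral-like (among them Apba1, Il1rap, Ntng1 and Ntrk3; background 5.53%) and 3 in tufted-like types (Homer3, Lin7a and Ntng2; background 3.81%). Ntng1, a netrin-G that binds Lrrc4 proteins, had medians of 5442 and 1323 CPM (2.31 ± 0.10, adjusted p = 4.2e-15), and the groups overlapped, with a lowest mitral-like library of 2461 CPM and a highest tufted-like one of 3070 CPM. Apba1, a presynaptic scaffold of neurexins, had 361 CPM or more in mitral-like and 271 CPM or less in tufted-like libraries, without overlap (1.52 ± 0.09, adjusted p = 7.2e-13).

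On the tufted side Ntng2 came from a single type, since ET2-like nuclei had 82.2, 73.6 and 148 CPM and all other libraries at most 2.92 CPM (-2.11 ± 0.37, adjusted p = 7.6e-05). Homer3, a postsynaptic scaffold, differed by -1.43 ± 0.33 (adjusted p = 0.0014) and was low throughout, at 13.9 CPM or less. Lin7a, a scaffold of neurexin and Cask complexes, differed by -1.32 ± 0.09 (adjusted p = 1.8e-11), although M2-like nuclei, at 263, 242 and 260 CPM, were within the tufted-like range. Adgrb3, the receptor of C1ql proteins, differed by -0.43 (adjusted p = 0.0011), under 2-fold, and was found in all 7 types, with 904, 888 and 549 CPM in M1-like nuclei, which held C1ql1, and 317, 407 and 260 CPM in ET2-like nuclei, which held C1ql3.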

How the data were processed

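Single-nucleus RNA-seq of sorted olfactory bulb nuclei from 3 mice (10x 3′ v3) was processed by the authors with Cell Ranger (3.0.2 in the file headers; genome mm10/GRCm38), and the deposited matrices hold raw UMI counts. The deposited metadata list nuclei and cluster numbers, which the authors obtained in Seurat after removing nuclei with few genes or high mitochondrial content. Whether introns were counted, and on which strand, is not given in the sources used here.

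Clusters were named from markers when at least 3 markers were carried, each at 25% (clusters) or 50% (subclusters) of the highest cluster and at 5 CPM or more. Counts were summed per mouse and type, and the libraries tested held at least 10 nuclei and 61554 to 128789498 UMIs. The sums were tested with edgeR 4.0.16 (R 4.3.3; filterByExpr, TMM, quasi-likelihood F test, Benjamini-Hochberg over all genes tested); a call between groups needed an adjusted p under 0.05 and a log2 fold change beyond 1 or -1. The code was tested on simulated data. CPM values use the library total. Alternatives were the mouse as a replicate block, other size factors, DESeq2 1.42.0, no filter, leaving out each mouse, leaving out nuclei with UMIs of both kinds, and leaving out the M1-like library of mouse 1.

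Libraries of a mouse come from the same animal and are paired by it: deviations from type means correlated at a mean of 0.108 over 63 same-mouse pairs. Such deviations cancel over the mice of a type. The mean of -0.05 over 126 other pairs follows largely from this and is not a separate comparison. The members, the partner list and the markers were chosen with earlier results of these data known. Genes were named by rule as the 2 called members of largest fold change per type, the 5 per direction of each group contrast, the 3 of widest range among inhibitory clusters and 3 partner genes per direction; other members singled out were chosen after their values were seen. A partner gene that this rule names is not reported here. Gene positions are from GENCODE (GRCm38), and promoter sequences from RefSeq.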

Additional observations from a re-analysis of the deposited data

Results flagged for a closer look

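Several members had their highest mean among the 22 clusters, or among the subclusters, in nuclei that no comparison above used, which is why they are listed here; n is 3 mice throughout. In cluster 18, named endothelial and mural, the means were 112 CPM for Adgrl2, 173 CPM for Adgrl4, 48.8 CPM for Flrt1 and 339 CPM for Flrt2, each above every other cluster. In unnamed cluster 21, whose 103 nuclei had a median UMI count 0.28 of that of their libraries, Cbln1 had a mean of 60.7 CPM with an SD of 66.1, and it was among the 10 leading genes. The M3-like subcluster, with a mean of 147 CPM, was above this.

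Among subclusters of the projection neuron clusters, unnamed subcluster 8 (126 nuclei) was highest for Cntn4 at 3463 CPM, Adgrl3 at 1138 CPM and Flrt3 at 109 CPM. Subcluster 2 carried inhibitory markers, and 92.2 to 95.7% of its nuclei per mouse held UMIs of both excitatory and inhibitory genes. It was highest for Cntnap4 at 252 CPM, Tenm2 at 750.1 CPM, Tenm3 at 779 CPM, Nrxn3 at 6358 CPM, Slitrk4 at 21.0 CPM, Slitrk5 at 12.8 CPM, Il1rapl1 at 1819 CPM and Il1rapl2 at 106 CPM. All 8 of these were called higher in inhibitory than in projection neurons. Subcluster 9, also with inhibitory markers, was highest for Lrrtm3 at 335 CPM and for C1ql2 at 0.22 CPM. It held 9, 72 and 8 nuclei in mouse 1, 2 and 3, and its C1ql2 value was 1 UMI, too few to rank. Whether these nuclei are doublets was not tested.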

How the results depend on the processing

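Of the recomputed counts and medians 156 stayed close to the reported value and 7 moved. The number of members higher in neurons than in glia went from 20 to 13 with library sizes alone and ranged from 13 to 28 when a mouse was left out, lowest without mouse 1 and highest without mouse 2. The number higher in glia went from 2 to 1 without mouse 2. Members higher in T1-like nuclei went from 4 to 2 with DESeq2-type size factors and with library sizes alone, and ranged from 2 to 5 when a mouse was left out. The median log2 range went from 3.06 to 2.67 with no filter on low counts, which adds 3 members with few counts. Slitrk2 against glia reversed to 0.30 without mouse 2, and ranged from -1.35 to 0.30 when a mouse was left out. Of the recomputed values of the genes chosen by the naming rule, and not of the other members whose lost calls are given above, 385 kept direction and call, 2 lost the call and 1 reversed.

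With the mouse as a replicate block, 48 in place of 47 members differed among the 7 types, Adgrl1 being added (adjusted p = 0.019). Cntn6 was called lower in ET1-like (-1.11, adjusted p = 0.044) and ET2-like (-1.36, adjusted p = 0.017) nuclei, Ptprf was lost in T1-like nuclei (0.98), Nlgn3 was called among inhibitory clusters (adjusted p = 0.0087), and against glia Cntnap4 was added (1.14) and Cbln1 lost (0.98). The block changed no other call of a member. Library sizes alone shifted the median of all genes to -0.12 (M2), 0.16 (M3), -0.12 (T1), 0.13 (ET4) and -0.18 (neurons against glia), and changes there are relative to those shifts. Small libraries and members below about 1 CPM limit what could be detected.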
